A study of Mus musculus with 24 samples.

Results

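The mitochondrially encoded genes are the 37 genes carried by the mouse mitochondrial genome itself. They were found as the lines of the deposited gene table whose mapped symbol starts with mt-, which gave 37 of 56941 gene lines: 13 protein genes, 2 ribosomal RNA genes and 22 transfer RNA (tRNA) genes. Of these, 16 had enough reads to be tested between groups, namely both rRNAs, all 13 protein genes and the tRNA gene mt-Tp, while the other 21 tRNA genes did not. RNA was measured after labelling with 5-ethynyl uridine (EU), a uridine analogue that cells build into RNA made while it is present and that allows the labelled RNA to be captured by click chemistry.

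The study compared 3 genotypes of E14TG2a mouse embryonic stem cells: wild type (WT), Alkbh5-/- (KO) and Alkbh5 del-cIDR (dcIDR), a form of Alkbh5 lacking the region named cIDR. EU was given at 1 mM, and the labelling lasted 10, 20, 40 or 60 min, with 2 libraries per genotype and time, 24 libraries and 12 groups in all. All groups shared a medium of serum, LIF, the MEK inhibitor PD0325901 and the GSK3 inhibitor CHIR99021, and every sample received labelled Drosophila RNA as a spike-in. The labels name no separate clones, so each genotype is 1 line as far as they tell, and nothing says that a group's libraries came from separate cultures, so that the spread between them may be technical.

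Mammalian mitochondrial DNA is read by its own polymerase, POLRMT, with the factors TFAM and TFB2M. Both strands are transcribed as long precursors, and the tRNAs that punctuate them are cut out to free the rRNAs and mRNAs. The protein genes encode core subunits of the respiratory chain complexes I, III and IV and of the ATP synthase (complex V), and the rRNAs and tRNAs serve mitochondrial translation. ALKBH5 removes the N6-methyl mark from adenosine in RNA and is known mainly from the nucleus.

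EU can enter RNA only where a U is made, so T in the RNA-like strand marks the possible positions. The genes of the strand with few members are shown first because they include the tested tRNA gene and the protein gene richest in T. In the GENCODE M21 transcripts (build GRCm38), 28 members lie on the plus strand and 9 on the minus strand, and the minus strand carries mt-Nd6 and 8 tRNA genes. The 3 tRNA genes with the most reads are given whole, and mt-Nd6 and mt-Cytb, which lies beside it on the other strand, by their first 60 bases, 5′ to 3′ with T in capitals.
mt-Tp, chrM:15356-15422, minus strand: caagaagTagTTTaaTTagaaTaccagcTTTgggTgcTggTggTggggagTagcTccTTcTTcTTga
mt-Te, chrM:14071-14139, minus strand: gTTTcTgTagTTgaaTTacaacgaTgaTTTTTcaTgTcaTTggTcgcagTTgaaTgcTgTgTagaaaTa
mt-Tq, chrM:3772-3842, minus strand: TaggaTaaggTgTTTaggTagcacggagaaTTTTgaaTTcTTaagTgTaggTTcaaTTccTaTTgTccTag
mt-Nd6, chrM:14011-14070, minus strand: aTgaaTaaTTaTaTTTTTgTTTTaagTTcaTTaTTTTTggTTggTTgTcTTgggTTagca
mt-Cytb, chrM:14145-14204, plus strand: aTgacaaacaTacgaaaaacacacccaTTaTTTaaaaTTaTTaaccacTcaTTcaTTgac
Over its whole length mt-Nd6 was 43.74% T and mt-Cytb 29.2% T. The other tested genes were between 26.36% (mt-Rnr2) and 32.84% (mt-Tp) T.

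A stretch of mouse chromosome 1 carries a near-identical copy of part of the mitochondrial genome, which bears on which member a read is credited to. At GRCm38 chr1:24611535-24616197, minus strand, 7 annotated pseudogenes matched mt-Nd4, mt-Nd4l, mt-Nd3, mt-Co3, mt-Atp6, mt-Co2 and mt-Co1. Of the 7 pairs, 5 had no difference over 294 to 876 shared bases. The 2 pairs that did differ are given as stretches of 80 bases, 5′ to 3′, with the differing bases in capitals.
mt-Nd3, chrM:9459-9538, plus strand: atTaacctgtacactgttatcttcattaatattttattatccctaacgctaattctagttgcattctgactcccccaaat
Gm28438, chr1:24613040-24613119, minus strand: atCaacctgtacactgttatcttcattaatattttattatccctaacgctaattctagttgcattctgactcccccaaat
mt-Co1, chrM:6381-6460, plus strand: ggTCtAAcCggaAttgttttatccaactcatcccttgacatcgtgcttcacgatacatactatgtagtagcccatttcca
Gm29216, chr1:24616118-24616197, minus strand: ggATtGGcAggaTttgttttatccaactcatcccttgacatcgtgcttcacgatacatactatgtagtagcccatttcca
Counted from 1 at the 5′ end of the mitochondrial gene, with its base first, the pair of mt-Nd3 and Gm28438 differed by T3C alone over 345 bases. The pair of mt-Co1 and Gm29216 differed over 492 bases by T1056A, C1057T, A1059G, A1060G, C1062A and A1066T, all within 1 short run at the edge of the copy.

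Whole reads of each library were recovered from the deposited ratios. Libraries held 3129083 to 22138947 gene reads and 6037 to 23382 spike-in reads, of which the members took 69987 to 383802 gene reads. A level here is the number of reads a library would have had with 11714 spike-in reads. Of the 10 embryonic stem cell markers, such as Pou5f1 and Nanog, 10 were tested, with mean levels from 119 to 14069, whereas 5 endoderm markers lay between 2.11 and 52.8 and 4 mesoderm markers between 2.29 and 75.9, with none at 0 in all libraries. The summed reads of the 4 neural markers (Pax6, Tubb3, Nes, Sox1) were 154 to 185 per 1000000 gene reads in WT, 265 to 367 in KO and 107 to 144 in dcIDR. Those of the 4 trophoblast markers were 17.3 to 22.3, 9.49 to 15.7 and 15.3 to 22.5, and those of the 5 fibroblast markers 74.5 to 91.7, 58.7 to 73.3 and 44.5 to 89.9, in the same order. Alkbh5 itself had 361 to 3198 reads per WT library, 340 to 1989 per KO library and 242 to 2269 per dcIDR library. Relative to the median gene it was lower by limma in KO (log2 difference -0.60 ± 0.06 SE, adjusted p = 7.3e-06) and in dcIDR (-0.46 ± 0.06, adjusted p = 0.000134). Reads over a whole gene do not check the deletion itself, because they need not fall in the deleted part. Such RNA comes from many cells at once, so fewer cells of a kind and less RNA per cell cannot be told apart.

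The rRNAs were among the mitochondrial genes with the highest levels per length. mt-Rnr1 (chrM:70-1024), the RNA of the small ribosomal subunit, had a mean level of 26436 per kb over the 24 libraries. mt-Rnr2 (chrM:1094-2675), the RNA of the large subunit, had 28449 per kb. The level of mt-Rnr2 was 158.6% to 196.7% of that of mt-Rnr1 over the 12 groups, with a median of 177.4%. Per length both rRNAs were thus near each other and near several mRNAs in these reads. What the library preparation did to rRNA was not tested, so these levels need not be amounts of labelled rRNA.

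Among the 7 complex I genes, mt-Nd5 (chrM:11742-13565), a proton-pumping subunit, had the highest level per full length, 28021 per kb. mt-Nd1 had 21254 per kb, mt-Nd2 had 12716 per kb and mt-Nd4 had 10807 per kb. mt-Nd6 (chrM:13552-14070), the only protein gene of the minus strand, had 20818 per kb. Its level was 20.2% to 24.99% of that of mt-Nd5, whose 3′ end it overlaps on the other strand, and 42.3% to 54.6% of that of mt-Cytb. Whether the counting used strand is not given in the sources used here, so reads of mt-Nd6 and reads of RNA made from the opposite strand at the same place cannot be told apart. mt-Cytb (chrM:14145-15288), the mitochondrial subunit of complex III, had 19608 per kb. mt-Co1 (chrM:5328-6872), the catalytic subunit of complex IV, had 19555 per kb.

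The lowest protein genes were mt-Atp8 and the genes whose annotated copies on chromosome 1 cover nearly all their bases. mt-Co2, mt-Atp6, mt-Co3, mt-Nd3 and mt-Nd4l, of which at most 3 bases each lie outside the copies, had between 765 per kb (mt-Nd3) and 2152 per kb (mt-Co2). The 9 rRNA and protein genes that lie mostly or partly outside them, mt-Atp8 apart, had between 10807 and 28449 per kb. For the partly copied genes, all reads were also divided by the bases outside the chromosome 1 copies alone. This gave 28692 per kb over 1053 bases for mt-Co1 and 29667 per kb over 502 bases for mt-Nd4. On that basis the 9 genes ran from 12716 to 29667 per kb, and mt-Nd4 came above mt-Nd5, so the order of the complex I genes depends on how the copied bases are treated. mt-Atp8 (chrM:7766-7969), a short ATP synthase subunit, had 464 per kb. It lies between mt-Co2 and mt-Atp6, both copied, and its last 43 bases are also the first of mt-Atp6 and so of the identical copy Gm10925. On chromosome 1, Gm10925 ends at base 24614651 and Gm28661, the copy of mt-Co2, starts at base 24614885. No matching pseudogene was found between them, and whether those bases match mt-Atp8 was not tested.

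The copies themselves carried reads. Gm28661, the copy of mt-Co2, had a mean level of 1476 against 1472 for mt-Co2, and Gm28437, the copy of mt-Co3, had 1165 against 1087 for mt-Co3. Gm10925, the copy of mt-Atp6, had 1823 against 1231. Gm28438, the copy of mt-Nd3, had 1796 against 266, a copy level 6.75 times that of the member. By contrast Gm29216 had 1323 against 30213 for mt-Co1 and Gm28439 had 1683 against 14893 for mt-Nd4. Gm10222, the copy of mt-Nd4l, had 938 against 566; it was added to the copies after its values were seen. How the authors treated reads that match several places is not given in the sources used here. Levels of the 5 copied members, and every comparison between them and other members, are therefore uncertain. The level of mt-Atp8, which lies between copied members, may be uncertain in the same way. Less similar copies lie elsewhere, such as Gm13340 on chromosome 2, at 97.6% identity over 1545 bases of mt-Co1. Gm13339 matched mt-Nd2 at 96.7% over 510 bases, and Gm4076 matched mt-Nd5 at 90.4% over 965 bases. Runs of 50 or more bases shared with nuclear transcripts covered 74.89% of mt-Co1, 63.57% of mt-Nd4, 24.29% of mt-Nd5 and 17.24% of mt-Nd2. The levels of these genes may be affected too.

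The tRNA genes had few reads. mt-Tp, the proline tRNA gene and the last of the minus strand on the map, had 2808 per kb (mean level 188), and it was the only tRNA gene tested. mt-Te (glutamate) and mt-Tq (glutamine), the next tRNA genes by level, had mean levels of 5.0 and 2.9. In the 24 libraries mt-Te ran from 0 to 22.2 and mt-Tq from 0 to 9.1, and a count of 3 reads corresponds to a level of up to 5.82 in these libraries. The 14 plus-strand tRNA genes all had mean levels of at most 0.83. No read was found in any library for mt-Td, mt-Tk, mt-Tl2, mt-Tr, mt-Ts2 and mt-Tw, which is a statement about these counts and not about the RNAs.

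**Figure D1:**
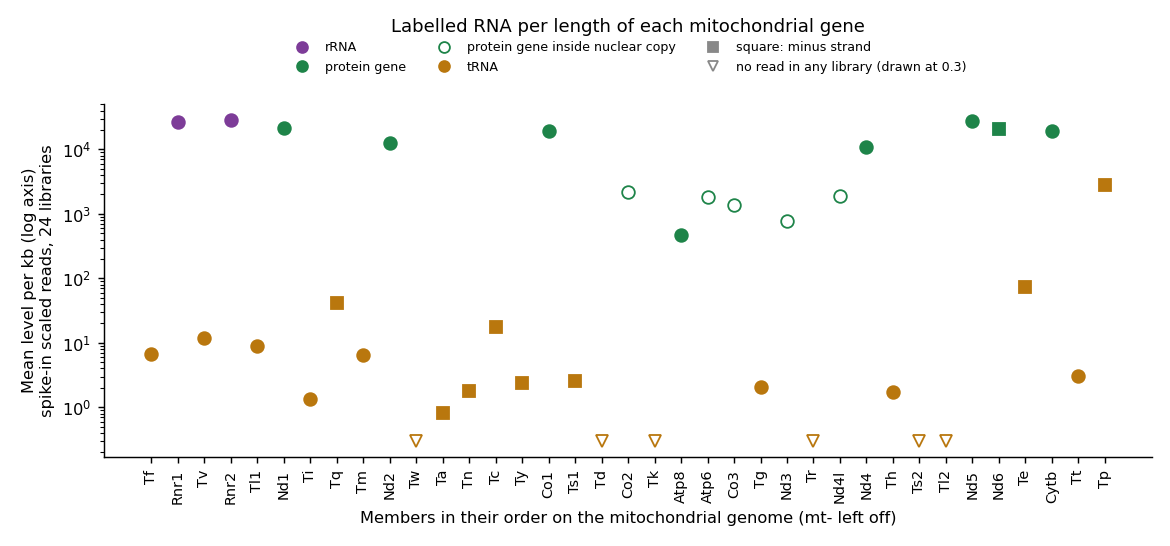
Mean level per kb (log axis, spike-in scaled reads, mean of 24 libraries) of the 37 members in their order on the mitochondrial genome. Colours mark rRNA, protein and tRNA genes, and squares the minus strand. Open circles are the 5 genes inside annotated chromosome 1 copies, and triangles genes with no read. The open circles lie between 765 and 2152 per kb, below the 10807 to 28449 per kb of the filled circles and square of the other protein genes and rRNAs, with mt-Atp8 lower still at 464 per kb; mt-Tp is the highest tRNA gene at 2808 per kb.

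The labelling series asked how labelled RNA builds up with time. On the spike-in scale all 16 tested members rose with labelling time in each genotype, by limma with Benjamini-Hochberg adjustment. The log2 rise per doubling of minutes was 0.51 to 0.79 in WT (median 0.65), 0.35 to 0.59 in KO (median 0.51) and 0.63 to 1.20 in dcIDR (median 0.89). These calls say little about the members in particular, since 95.5% of all 22448 genes tested passed in WT, 90.5% in KO and 97.2% in dcIDR. The medians over all genes tested were 0.84, 0.65 and 1.03, each above that of the members. From 10 to 60 min the members' group levels rose 2.41- to 4.10-fold in WT, 1.96- to 3.08-fold in KO and 3.23- to 9.32-fold in dcIDR, against 3.91-, 2.98- and 5.81-fold for the median gene.

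mt-Rnr1 had WT group levels of 10942, 17425, 28513 and 34862 at 10, 20, 40 and 60 min. In KO they were 15563, 20175, 26125 and 41867, and in dcIDR 8847, 23930, 36695 and 38016. Thus KO started highest and dcIDR lowest, and dcIDR was the highest at 20 and 40 min. For mt-Rnr1, mt-Rnr2 and mt-Nd5 the reads of a group's 2 libraries could be told apart in only 4, 1 and 4 of the 12 groups, so group means are given. mt-Rnr2 had 18723, 27635, 51957 and 59028 in WT. It had 29713, 36465, 46974 and 73301 in KO and 14499, 47076, 68735 and 65961 in dcIDR, the same order of genotypes at 10 and 20 min.

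mt-Nd5, the complex I gene with the highest level, had 21875, 31540, 54519 and 69444 in WT. KO had 30424, 38118, 55291 and 75895, and dcIDR had 14763, 57865, 89688 and 73908. mt-Cytb had 9746, 14995, 23659 and 30251 in WT, 13306, 17349, 24439 and 36188 in KO and 6756, 23555, 35642 and 33289 in dcIDR. For both genes the dcIDR level was highest at 40 min and not at 60 min. mt-Co1 had 10749, 19466, 35120 and 40851 in WT, 16557, 22847, 30708 and 49476 in KO and 7614, 32143, 49150 and 47876 in dcIDR.

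mt-Atp6 had its reads told apart in every library. By labelling time, from the shortest to the longest, the pairs of WT libraries had 561 and 425, then 839 and 584, then 1258 and 1403, then 1511 and 1610. In KO they had 626 and 917, 993 and 984, 1274 and 1404, and 2206 and 2022. In dcIDR they had 280 and 310, 1179 and 1492, 1636 and 2061, and 1473 and 2487. At 10 min both dcIDR libraries lay below all libraries of the other genotypes, at 20 and 40 min both lay above all of them, and at 60 min the dcIDR libraries lay on either side of the rest.

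For mt-Nd6, in the same order of times, the WT libraries had 5558 and 4606, then 7327 and 6782, then 10537 and 12394, with a group mean of 14759 at the last time. KO had 5596 and 7161, 7177 and 9327, a group mean of 12266 at 40 min, and 15105 and 15504. dcIDR had 3684 and 3694, 10065 and 13607, a group mean of 18097 at 40 min, and 11834 and 19111. The dcIDR libraries were the lowest at 10 min and the highest at 20 min, as for mt-Atp6.

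For mt-Tp, again in that order, the WT libraries had 107 and 66.3, then 166 and 124, then 172 and 212, then 219 and 233. KO had 94.2 and 131, 141 and 165, 165 and 180, and 235 and 207. dcIDR had 90.1 and 76.0, 258 and 288, 302 and 349, and 204 and 333. At 20 and 40 min both dcIDR libraries lay above every WT and KO library. At 10 min both lay below both KO libraries and between the WT libraries, and at 60 min the genotypes overlapped.

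**Figure D2:**
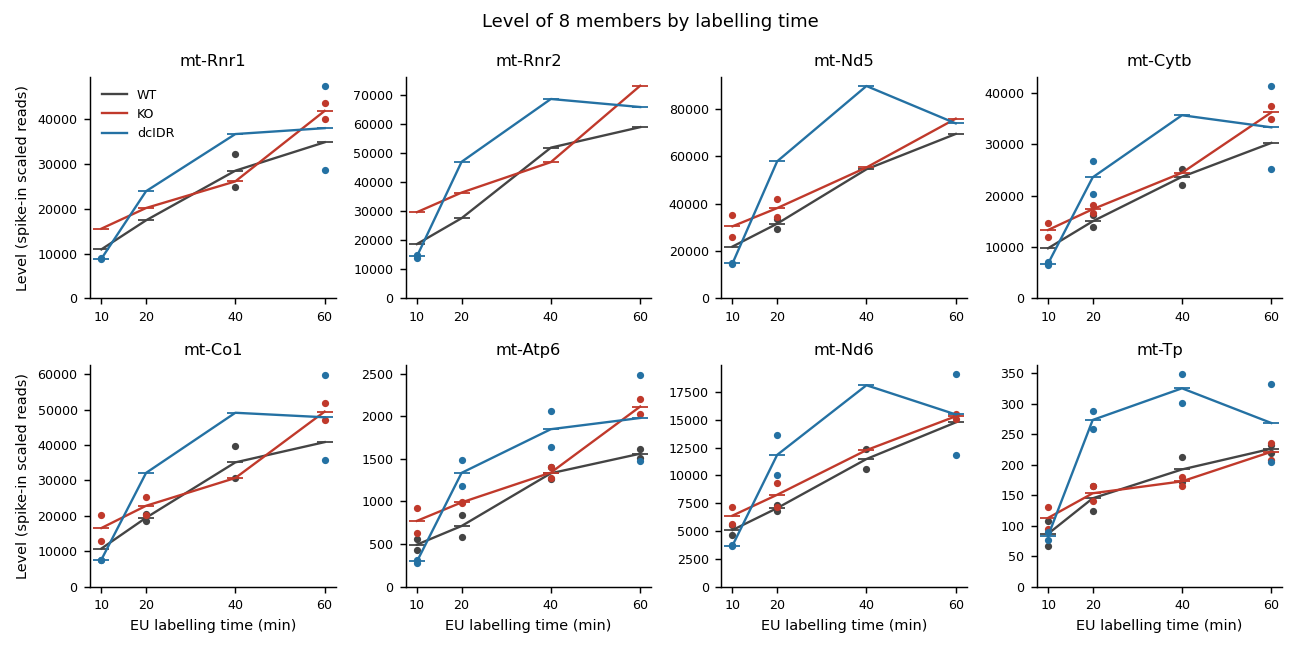
Level (spike-in scaled reads, linear axis from 0) of 8 members against EU labelling time in minutes; points are libraries whose reads could be told apart, and horizontal ticks joined by lines are group means of 2 libraries. In dcIDR (blue) most members start lowest at 10 min and are highest at 20 and 40 min, for example mt-Nd5 at 14763 and then 57865 and 89688, and for mt-Tp both dcIDR libraries exceed the rest at 20 and 40 min.

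The spike-in scale carries what all genes of a library share, so the trend was also fitted relative to each library's median tested gene. In WT all 16 members then had slopes below 0 per doubling of minutes, from -0.29 (mt-Atp8) to -0.01 (mt-Co3), with a median of -0.15 against 0.04 over all genes tested. By limma 6 of the 16 fell relative to the median gene, where 9.58% of all genes tested fell and 24.9% rose (34.4% in all). mt-Atp8 fell by 0.29 ± 0.10 (SE, adjusted p = 0.0384) and mt-Tp by 0.26 ± 0.07 (adjusted p = 0.00942). mt-Nd2, a complex I subunit, fell by 0.24 ± 0.08 (adjusted p = 0.0392). mt-Nd3, mt-Nd6 and mt-Nd5 had slopes of -0.20 ± 0.08, -0.20 ± 0.05 and -0.14 ± 0.04 (adjusted p = 0.0495, 0.0149 and 0.0451). The number of members called ranged from 0 to 10 as single libraries were left out: 0 without WT 60 min library B, 1 without WT 10 min B, 2 without WT 10 min A, 20 min A, 40 min B or 60 min A, and 10 without WT 40 min A (library A is the one with more spike-in reads). It was 0 without the 10 min libraries and 12 when the prior spread followed the level, and on the spike-in scale all 16 members rose. The counts under omissions and under that prior take calls in either direction. The shares of all genes called there were not worked out.

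The same fit in the other genotypes gave fewer calls. In KO all 16 slopes were below 0 (median -0.11) and 2 members fell, mt-Tp by 0.26 ± 0.07 (adjusted p = 0.0132) and mt-Nd4l by 0.23 ± 0.07 (adjusted p = 0.0348, limma), where 6.66% of all genes tested fell and 24.5% changed. In dcIDR 11 slopes were below 0 (median -0.10), with mt-Tp, mt-Nd3 and mt-Nd6 falling by 0.35 ± 0.07, 0.21 ± 0.08 and 0.18 ± 0.05, where 13.8% of all genes tested fell. mt-Co3, a complex IV subunit inside the copied span, rose by 0.22 ± 0.07 (adjusted p = 0.0151, limma), where 29.1% of genes rose. mt-Tp was called in all 3 genotypes. Without the 10 min libraries 1 member was called in KO and 0 in dcIDR (smallest adjusted p = 0.096, limma), as 0 were in WT. With a prior spread following the level 6 were called in KO and 9 in dcIDR, with quantile normalization 6 and 5, and with no filter 7 and 13 of 31. These counts take calls in either direction, so they are not counts of falls. The shares of all genes called in these settings were not worked out. The slopes given here are relative to the median gene, and on the spike-in scale every one was above 0.

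**Figure D3:**
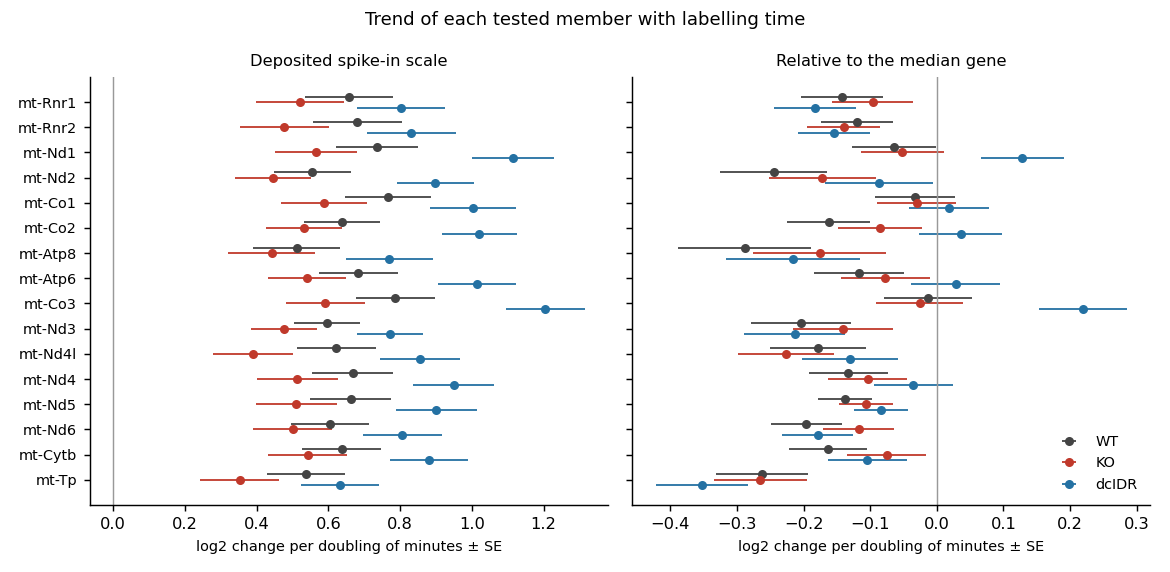
Slope of each of the 16 tested members per doubling of labelling minutes (log2, ± SE of the limma fit) on the deposited spike-in scale (left) and relative to the median gene (right), in genome order, for WT, KO and dcIDR. All slopes are above 0 on the left, whereas on the right all WT and KO slopes and 11 of 16 dcIDR slopes are below 0, with mt-Co3 in dcIDR highest at 0.22.

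The share of a library's gene reads that fell on the members is scaled by neither the spike-in nor the median gene. It does rest on the recovered reads and on how they were divided between a group's 2 libraries. That division was clear in only 4, 1 and 4 of 12 groups for mt-Rnr1, mt-Rnr2 and mt-Nd5. The SDs and permutation p given for the share therefore depend on it. The share ran from 1.24% to 2.37% over the 24 libraries. In WT it was 2.21% ± 0.0675 (SD, n = 2 libraries, as for each mean here) after 10 min and then 1.84% ± 0.107, 1.44% ± 0.275 and 1.51% ± 0.0879 at the later times. In KO it was 1.91% ± 0.116, 1.83% ± 0.0172, 1.45% ± 0.0302 and 1.48% ± 0.168. In dcIDR it was 2.30% ± 0.0925, 1.89% ± 0.268, 1.71% ± 0.132 and 1.56% ± 0.221. In each genotype both 10 min libraries had a higher share than both 40 min and both 60 min libraries.

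No difference in share between genotypes passed the test. The log2 share in KO minus that in WT, averaged over the 4 times, was -0.06 (exact two-sided permutation p = 0.366 over 1296 arrangements within times, 8 against 8 libraries). At the single times the difference was -0.21, -0.01, 0.03 and -0.04. For dcIDR minus WT it was 0.10 (exact permutation p = 0.219), with 0.06, 0.03, 0.26 and 0.03 at the single times. Adjusted over these 2 comparisons both p were 0.366. Without the rRNAs the differences were -0.07 (exact permutation p = 0.272) and 0.10 (p = 0.252). With the members' reads divided between a group's libraries about the median gene, a division that makes both libraries more alike by construction, dcIDR minus WT was 0.10 with an exact permutation p of 0.0108 (adjusted 0.0216).

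**Figure D4:**
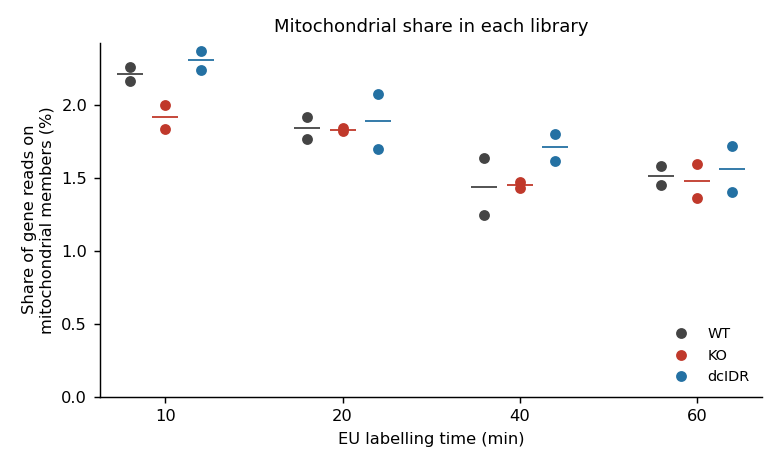
Share of each library's gene reads on the 37 members (percent, axis from 0) against EU labelling time, with a point per library and a line at the mean of 2 libraries. The share is highest at 10 min, at 1.91% to 2.30% by genotype, and lower at 40 and 60 min, at 1.44% to 1.71%. Both mutants overlap WT at 20, 40 and 60 min. At 10 min dcIDR overlaps WT, and both KO libraries lie below the others.

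To ask what loss of Alkbh5 does to these genes, KO was compared with WT at each time and the 4 differences were averaged. Relative to the median gene no member of 16 passed limma's test in KO, where 30.4% of all genes tested passed (14.8% higher, 15.7% lower). At an unadjusted p under 0.05 there were 2 members, and the smallest adjusted p was 0.088; limma on the 12 group means also called 0 (17% of all genes), and leaving out 1 library gave 1 call without WT 40 min library B and 0 otherwise. The log2 differences ran from -0.23 (mt-Nd3) to 0.09 (mt-Atp6) with a median of -0.08, and 13 of 16 were below 0, against a median of -0.01 over all genes. mt-Rnr1 and mt-Rnr2 were at -0.09 ± 0.09 and 0.00 ± 0.08 (SE), and mt-Co1 at -0.08 ± 0.08. mt-Tp was at -0.23 ± 0.10 (adjusted p = 0.088) and mt-Nd6 at -0.13 ± 0.07 (adjusted p = 0.21, limma). On the spike-in scale, where the median of all genes was 0.30 higher in KO, all 16 members were above 0, from 0.08 to 0.39, and none passed (smallest adjusted p = 0.0628, 24.9% of all genes called). Relative to the median gene 3 of 10 embryonic stem cell markers were higher and 3 lower in KO by limma. Of the 4 neural markers 3 were higher, and 1 trophoblast and 1 fibroblast marker were lower. The part of these markers in the members' values was not tested.

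In dcIDR 1 member, the proline tRNA gene, was called against WT, and the call depended on single libraries and on the scale. mt-Tp rose by 0.30 ± 0.10 on the log2 scale relative to the median gene against WT (limma, adjusted p = 0.0374), the only one of 16 called, where 10.6% of all genes tested were higher and 25.6% changed. The difference was 0.47, 0.19, 0.39 and 0.13 at 10, 20, 40 and 60 min, and both dcIDR libraries lay above both WT libraries at 2 of the 4 times. The call was lost without any 1 of 8 libraries, namely WT library B of each time, dcIDR library A of 10, 20 and 40 min and dcIDR library B of 60 min, with differences of 0.23 to 0.36 and adjusted p of 0.0141 to 0.0921 over all 24 omissions. It was also lost on the spike-in scale (0.47, adjusted p = 0.0706), with no filter, on the 12 group means (0 members, 10% of all genes) and without the 10 min libraries, with adjusted p of 0.0141 to 0.139 over all alternatives. The other 15 members lay between -0.08 (mt-Nd1) and 0.10 (mt-Co3), and the median of the 16 was 0.06 against -0.02 over all genes. On the spike-in scale all 16 were above 0, from 0.09 to 0.47, none passed, and 7.97% of all genes did. The markers Nes, Tubb3, Krt8 and Vim were also lower in dcIDR than in WT by limma. Of the 10 embryonic stem cell markers 2 were higher and 2 lower. The part of all these markers in the difference of mt-Tp was not tested.

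The mutants were also compared with each other. Relative to the median gene 3 of 16 members were higher in dcIDR than in KO by limma, where 21% of all genes tested were higher and 43.4% changed. mt-Tp was higher by 0.53 ± 0.10 (adjusted p = 0.000503), mt-Nd6 by 0.21 ± 0.07 (adjusted p = 0.0433) and mt-Nd5 by 0.18 ± 0.06 (adjusted p = 0.043). mt-Tp and mt-Nd6 lie on the minus strand and mt-Nd5 on the plus strand, and no pattern by strand was tested. For mt-Tp both dcIDR libraries exceeded both KO libraries at 4 of 4 times, and the call held without each of the 24 libraries (0.46 to 0.59). The call of mt-Tp was lost on the spike-in scale (0.39, limma adjusted p = 0.0733), where both dcIDR libraries lay below both KO libraries at 10 min. The call of mt-Nd5 was lost in 12 and that of mt-Nd6 in 15 of the 24 omissions of 1 library, with adjusted p up to 0.117 and 0.102. Only 1 member was left without WT 20 min A or B, KO 10 min A, 20 min A, 40 min B or 60 min A, or dcIDR 10 min A or B, 20 min A, 40 min A or 60 min B. Both calls were lost on the spike-in scale (0.05 and 0.07), and mt-Nd5 was at -0.04 after quantile normalization. Over the 16 members the median was 0.10 and 15 were above 0, against a median of 0.01 over all genes; on the spike-in scale the median was -0.04 and none passed, where 23.7% of all genes did. On the 12 group means 1 member passed, where 29.4% of all genes did. The neural markers given above also differed between these mutants, with 3 of 4 lower in dcIDR. Of the 10 embryonic stem cell markers 3 were higher and 2 lower in dcIDR than in KO. Of the 3 tested trophoblast markers Gata3 was higher and Krt8 lower in dcIDR than in KO, of the 3 tested fibroblast markers Vim was lower, and of the 3 tested endoderm markers Gata6 was higher. The part of these markers in the members' differences was not tested. The comparisons of KO and dcIDR with WT share the WT libraries.

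**Figure D5:**
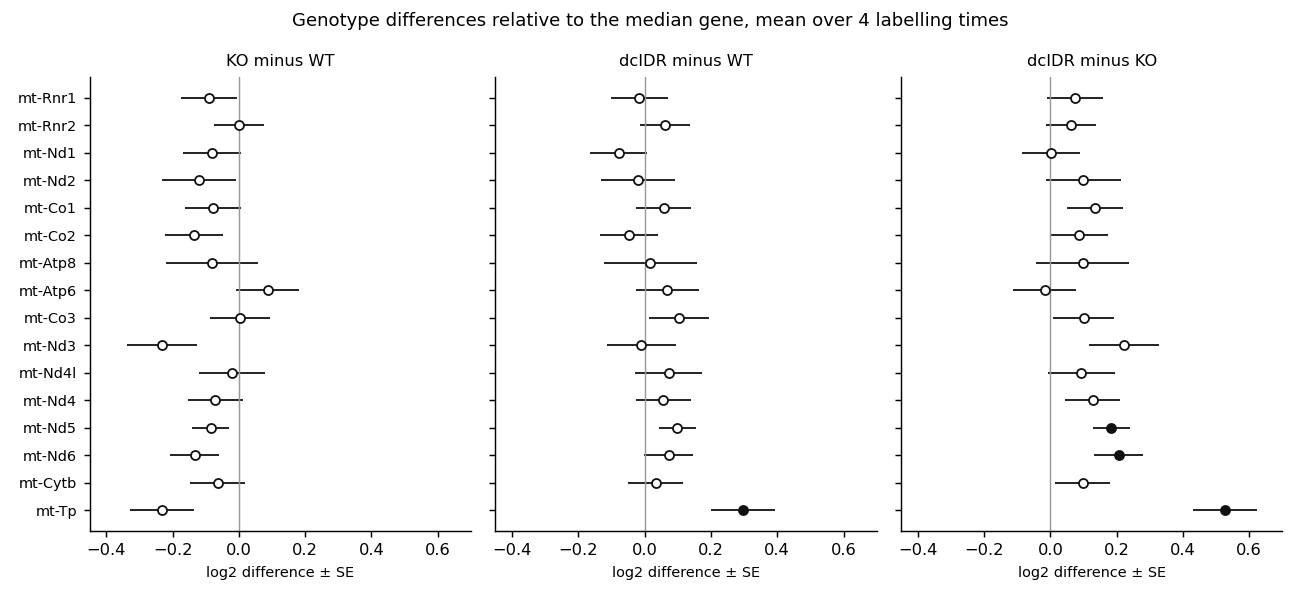
Log2 difference relative to the median gene, averaged over the 4 labelling times, with SE of the limma fit, for the 16 tested members in KO minus WT, dcIDR minus WT and dcIDR minus KO; filled points have an adjusted p under 0.05. No point is filled in the first panel, mt-Tp (0.30) alone in the second, and mt-Tp (0.53), mt-Nd6 (0.21) and mt-Nd5 (0.18) in the third.

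Whether the genotype differences changed with labelling time was tested over the 6 contrasts against 10 min. Relative to the median gene no member passed limma's F test (smallest adjusted p = 0.425, 0 at an unadjusted p under 0.05), where 2.53% of all genes did. On the spike-in scale 8 of 16 members passed, where 46.9% of all genes did. Of the 8 members whose time courses are given above only mt-Atp6 was among these (adjusted p = 0.022, limma), and mt-Nd5, mt-Co1, mt-Cytb, mt-Nd6, mt-Tp, mt-Rnr2 and mt-Rnr1 had adjusted p from 0.059 to 0.333. This test covers KO as well as dcIDR, so it does not single out either genotype.

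The nuclear genes whose products make and process mitochondrial RNA were read from 3 lists. Among 18 genes of mitochondrial transcription and replication, KO showed 2 higher and 1 lower relative to the median gene (median -0.10 against WT), where 14.8% of all genes tested were higher and 15.7% lower. Primpol, a primase-polymerase, rose by 0.51 ± 0.06 and Ssbp1, the mitochondrial single-strand binding protein, by 0.44 ± 0.07, and Rnaseh1, which cuts RNA in RNA-DNA hybrids, fell by 0.20 ± 0.05. Polrmt itself was at -0.09 ± 0.08 and Tfam at 0.07 ± 0.05, and neither passed. In dcIDR against WT 1 was higher and 4 lower (median -0.01), where 10.6% of all genes were higher and 15.1% lower, among them Tefm, the mitochondrial elongation factor, which fell by 0.44 ± 0.11, and the nuclease gene Mgme1, which fell by 0.30 ± 0.07.

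Of 23 genes of mitochondrial RNA processing, stability and decay, 21 were tested. In KO 4 rose and 1 fell (median -0.03), with Trnt1, which adds the CCA end of tRNAs, higher by 0.80 ± 0.06 and Ptcd3 by 0.28 ± 0.04. Elac2, the 3′ tRNA nuclease, was at -0.05 ± 0.05 and Lrpprc, an mRNA-stabilizing factor, at -0.09 ± 0.05, and neither passed. In dcIDR 1 rose and 1 fell (median 0.00), Trnt1 by 0.17 ± 0.06 and Tbrg4, which fell by 0.27 ± 0.04. Of 27 genes of mitochondrial RNA modification, 2 rose and 2 fell in KO (median -0.02), with Gtpbp3 and Nsun3, which act on tRNA wobble positions, higher by 0.34 ± 0.04 and 0.28 ± 0.06. In dcIDR 0 rose and 7 fell (median -0.13), with Alkbh1 falling by 0.38 ± 0.04 and Qtrt1 by 0.29 ± 0.05; Tfb1m, in this list and the first, fell by 0.28 ± 0.08. The same shares of all genes apply to these counts. Where the genes of the 3 lists lie on the chromosomes was not examined, and its part in their differences was not tested. On the spike-in scale no gene of the 3 lists passed in dcIDR against WT, and in KO 2, 4 and 4 rose and none fell. On the 12 group means 1, 0 and 0 genes of the lists fell and none rose in dcIDR, and 1, 1 and 2 rose and none fell in KO, so that the 7 calls of the modification list in dcIDR were all lost.

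With labelling time the medians of the nuclear lists had the other sign from that of the members. Relative to the median gene 11 of 18, 16 of 21 and 15 of 27 of them rose in WT by limma, with 0, 0 and 1 falling, where 24.9% of all genes tested rose and 9.58% fell, and medians of 0.14, 0.22 and 0.16 per doubling. Fastkd3 rose by 0.54 ± 0.04, Mrm1 by 0.46 ± 0.12 and Trnt1 by 0.40 ± 0.04. The difference between these lists and the members was not tested. The 6 listed nuclear copies of mitochondrial DNA had a median slope of -0.12 in WT with 0 called, near the members' median of -0.15. Between genotypes 1 of these copies was lower in KO against WT and 1 higher in dcIDR against KO (Gm29216 and Gm28438), and 0 were called in dcIDR against WT.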

How the data were processed

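Per the labels' protocols, EU-labelled RNA with Drosophila spike-in was captured and made into stranded total RNA libraries (SMARTer v2). HISAT2, SAMtools, Picard and the build GRCm39 come from the submitters' processing notes. Tool versions, the read counter, its annotation, its use of strand and its handling of multiply matching reads: not given in the sources used here. The authors deposited, per genotype, the log2 ratio of the spike-in scaled value at 20, 40 or 60 min to that at 10 min, with both libraries of a group combined. These values are exact functions of whole reads, so reads were recovered (122679 of 122679 gene-by-genotype lines, relative error at most 2.8e-15, constant 40000). Where several divisions of a sum between the 2 libraries were possible, members took the one near the group's uniquely divided members (within 0.25 log2, next at least 0.6 away). This may understate spread, and groups with no clear division gave no spread. Library A is the library with more spike-in reads, since replicate numbers are not in these values.

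The 22448 genes whose mean level reached 10 and that had reads in 6 or more libraries were tested with limma 3.58.1 (R 4.3.3) on log2(level + 1), relative to the library's median tested gene, with 1 coefficient per group, shared spread and Benjamini-Hochberg adjustment at 0.05. Depth ran from 3129083 to 22138947 gene reads. Tested on simulated data for KO minus WT (22448 genes), the fit recovered 18%, 46%, 70% and 84% of genes changed 1.25-, 1.5-, 2- and 3-fold, with 5 false calls among 22248. Simulated sums were recovered in 100% of cases, with clear divisions in 100% at level 100 and 15% at level 60000. Sequences and positions are from GENCODE M21 (GRCm38) transcripts; GRCm39 positions are those of the deposited repeat table. Every member is accounted for, with full values for the rRNAs, the highest gene of each respiratory complex, mt-Nd6, the 3 highest tRNA genes and up to 3 called members per comparison. Members and lists were chosen with earlier results of these data known. Alternatives were the spike-in scale, quantile normalization, pseudocount 5, no filter, group means, and omission of libraries or of 10 min. Added after seeing the data were a prior following the level, the other division of reads and other centring. That centring used only genes outside chromosomes 4, 6, 8, 11 and X.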

Additional observations from a re-analysis of the deposited data

Results flagged for a closer look

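The deposited repeat table, which the comparisons above do not use, also has 6 lines on the mitochondrial genome. All of them had reads above what a count of 3 allows (a level of up to 5.82). Their levels are means over the 12 groups and their positions are those of the deposited table (GRCm39). The tRNA line at chrM:2677-2750 had 1758, with groups from 385 to 3119, and the tRNA line at chrM:3772-3842 had 594.3. The tRNA line at chrM:6870-6938 had 299.8. The tRNA genes of the gene table at these places, mt-Tl1, mt-Tq and mt-Ts1, had mean levels of 0.66, 2.9 and 0.18. A simple repeat at chrM:11300-11373 had 4505, a low-complexity line at chrM:924-953 had 3394 and an rRNA line at chrM:2362-2540 had 294.3. The same places thus held many reads in 1 table and few in the other, and how the 2 tables were counted is not given in the sources used here.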

How the results depend on the processing

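No paired analysis was possible because the deposited values carry no replicate numbers. The count-based alternative of the plan was not run, since the deposited values are ratios. For members called, dcIDR minus WT gave 1 and then 0 on the spike-in scale, with no filter, on group means and without 10 min, and 2 with a prior following the level; dcIDR minus KO gave 3 and then 0 on the spike-in scale and 1 with pseudocount 5, on group means, without 10 min and with the other centring; the dependence on time gave 0 and then 8 on the spike-in scale. The WT trend gave 6 and then 16 on the spike-in scale, 0 without 10 min and 12 with that prior, counting calls in either direction. Leaving out 1 library gave 0 to 1 for KO minus WT, 0 to 1 for dcIDR minus WT, 1 to 4 for dcIDR minus KO, 0 to 10 for the WT trend and 0 to 0 for the dependence on time. The share moved from -0.1068 to -0.0084 (KO) and 0.0465 to 0.1449 (dcIDR), and was 0.1007 for dcIDR with the other division of reads.

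Signs turned as follows. On the spike-in scale KO minus WT was 0.2303 for mt-Co1, 0.2440 for mt-Cytb, 0.2230 for mt-Nd5, 0.1745 for mt-Nd6, 0.2175 for mt-Rnr1 and 0.0761 for mt-Tp, and dcIDR minus WT was 0.1546 for mt-Rnr1. WT slopes there were 0.6839 for mt-Atp6, 0.5115 for mt-Atp8, 0.7670 for mt-Co1, 0.6366 for mt-Cytb, 0.5553 for mt-Nd2, 0.5958 for mt-Nd3, 0.6621 for mt-Nd5, 0.6043 for mt-Nd6, 0.6581 for mt-Rnr1, 0.6803 for mt-Rnr2 and 0.5374 for mt-Tp. With no filter, which lowers the median gene, WT slopes were 0.0579 for mt-Atp6, 0.1411 for mt-Co1, 0.0107 for mt-Cytb, 0.0361 for mt-Nd5, 0.0321 for mt-Rnr1 and 0.0544 for mt-Rnr2, and dcIDR minus WT was 0.0401 for mt-Rnr1. Without 10 min WT slopes were 0.0567 for mt-Atp6, 0.0310 for mt-Nd5 and 0.0236 for mt-Rnr2, and KO minus WT was 0.0061 for mt-Cytb. After quantile normalization mt-Nd5 was 0.0353 (KO minus WT), 0.0000 (dcIDR minus WT) and -0.0353 (dcIDR minus KO), and mt-Rnr1 was 0.0138 (dcIDR minus WT). With pseudocount 5 the WT slope of mt-Co1 was 0.0027. Leaving out 1 library, mt-Cytb (dcIDR minus WT) ran from -0.0230 to 0.0897, mt-Rnr1 (dcIDR minus WT) from -0.0568 to 0.0254 and mt-Rnr2 (KO minus WT) from -0.0596 to 0.0612. Apart from the changes that an alternative makes by construction, the cause was not tested. Of the tRNA genes 21 had too few reads in the gene table to be tested, and the recovered division between libraries limits mt-Rnr1, mt-Rnr2 and mt-Nd5.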

Other observations

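Some ratios between members set 1 group apart. The level of mt-Nd1, the complex I gene that follows mt-Rnr2 on the plus strand, was 28.0% of that of mt-Rnr2 in dcIDR at 10 min and 39.0% to 48.6% in the other 11 groups. In the same group mt-Cytb was 166.6% of mt-Nd1, against 104.0% to 124.2% elsewhere. The dcIDR libraries at 10 min had mt-Nd1 levels of 4149 and 3961 and mt-Rnr2 levels of 15051 and 13946, so both libraries shared the low ratio. mt-Tp was 1.23% of mt-Cytb in that group and 0.61% to 1.16% in the others. These 10 min dcIDR libraries also had few gene reads, 4006054 and 3129083, and the part of depth in these ratios was not tested. The ratios were singled out after their values were seen.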
